A study of Mus musculus with 24 samples.

Results

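The collagen gene family was examined in RNA sequencing (RNA-seq) of whole lungs and of retinas from wild-type (WT) and gasdermin D knockout (GSDMD-KO) mice. Its members were taken by name alone, as genes whose mouse symbol is Col, a type number, the letter a and a chain number. Of this form 43 genes were examined, of 36109 genes listed for lung and 36595 for retina. In lung 41 of the 43 had enough counts to be tested among 16819 genes, and in retina all 43 were tested among 19173. Col19a1 and Col9a1 were the members left out in lung, with at most 3 and 6 counts in any library.

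All mice were of the C57/B6 background. Knockout pups were homozygous for a small deletion within an exon of Gsdmd, a global knockout carried by every cell, and were compared with WT littermates. For lung, pups breathed room air (RA, 21% oxygen) or hyperoxia (O2, 85% oxygen) from postnatal day 1 to 14 and lungs were collected on day 15, an exposure that models bronchopulmonary dysplasia. For retina, pups breathed room air or 75% oxygen from day 7 to 12, returned to room air and were sampled on day 18, an exposure that models oxygen-induced retinopathy. The 4 groups of each tissue were WT-RA, WT-O2, KO-RA and KO-O2, with 3 mice in each group and 24 libraries in all. In whole tissue, fewer cells of a type and less RNA per cell cannot be told apart.

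Collagens are extracellular matrix proteins in which several chains wind around each other into a triple helix, which is possible because glycine, the smallest residue, opens each unit of the repeat Gly-X-Y. Fibrillar collagens (types I, II, III, V, XI, XXIV and XXVII) assemble into the cross-banded fibrils that bear tension. Type IV collagens form the sheet-like network of basement membranes under epithelium and around vessels. Type VI makes beaded microfilaments, and the fibril-associated collagens (FACIT) sit on the surface of fibrils. Types VIII and X form short-chain hexagonal networks, the multiplexins (types XV and XVIII) carry long side chains of sugars in vascular basement membranes, and transmembrane collagens such as type XVII anchor cells. In lung, fibrillar and type IV collagens form the scaffold of the airspace walls, whereas in the eye types II and IX build the vitreous gel.

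The repeat that defines the family could be read directly in the coding sequences of the GENCODE mouse transcripts (GRCm38). An unbroken run of codon triplets that each open with a glycine codon (GGN) reached 216 to 344 triplets in the 11 fibrillar genes, with a median of 338. The longest run was 39 to 66 triplets in the 5 type IV genes and 30 in both multiplexins. The type IV coding sequences held 23 to 27 separate runs of at least 5 triplets, against 2 or 3 in the fibrillar genes. Each stretch below has 24 codons in frame, with glycine codons in capitals. It opens the longest run in Col5a3, the fibrillar gene with the highest fold change in hyperoxic lung, and spans the end of the longest run in Col4a4 and Col18a1, where the spacing of the capitals breaks.
Col5a3, codons 478 to 501: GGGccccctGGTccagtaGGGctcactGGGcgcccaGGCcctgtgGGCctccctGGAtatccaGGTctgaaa
Col4a4, codons 946 to 969: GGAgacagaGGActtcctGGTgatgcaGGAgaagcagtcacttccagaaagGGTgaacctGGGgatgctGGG
Col18a1, codons 1031 to 1054: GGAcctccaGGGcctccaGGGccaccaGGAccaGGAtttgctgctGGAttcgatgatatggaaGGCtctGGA

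Levels are CPM, which are counts relative to the library total, with library totals adjusted by the trimmed mean of M values (TMM). Differences are log2 fold changes ± standard error (SE) from the quasi-likelihood test of edgeR over all genes, with Benjamini-Hochberg adjusted p. A gene is said to have risen or fallen where the adjusted p was below 0.1, and to have been called where it also changed at least 2-fold, as in the criteria of the study. Library totals were 28763450 to 29604069 counts in lung and 24863225 to 29093010 in retina. In lung, Gsdmd was 32.1 to 42.3 CPM in WT and 11.7 to 24.8 in GSDMD-KO libraries. In retina Gsdmd was 4.08, 0.419 and 2.7 CPM in WT-RA, 5.7, 2.9 and 3.85 in WT-O2, 0.98, 0.774 and 0.636 in KO-RA and 1.11, 1.44 and 2.95 in KO-O2. The library labelled WT-RA replicate 2 therefore lay below every KO retina, and KO-O2 replicate 3 lay above 3 of the 6 WT retinas, so the retinal genotype comparisons are also given without these 2 libraries. Lens marker genes summed to 19140 and 62200 CPM in the retinas labelled WT-RA replicates 2 and 3 and 30650 in KO-RA replicate 3, and to 4.24 to 248.8 in the other 9. Y-linked genes were high in 6 of 12 lung libraries (none in WT-RA, all 3 in KO-O2) and in 8 of 12 retinal libraries (all 6 in room air), so sex was partly tied to group.

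Of TMM-scaled lung counts, the 43 genes made up 1.09 ± 0.126% (mean ± SD, n = 3) in the WT-RA group and 1.53 ± 0.0977% after WT hyperoxia. The corresponding shares for GSDMD-KO were 1.17 ± 0.0685% in room air and 1.55 ± 0.13% in hyperoxia. Every hyperoxic lung library lay above every room air library. Fibrillar genes held 47.8 to 57.8% of the collagen CPM in a lung library. The type IV share was 20.6 to 27.8% in room air and 27.6 to 30.8% in hyperoxia, and these ranges overlapped only through WT-RA replicate 1. The type VI share went the other way, with 16.3 to 18.8% in room air and 10.7 to 12.4% in hyperoxia. The multiplexin share was 1.15 to 1.33% in room air and 2.96 to 4.18% in hyperoxia. In retina these 43 genes made up only 0.0333 to 0.0589% of TMM-scaled counts. Their make-up was also different, with 21.2 to 30.8% from the FACIT genes and 13.1 to 27.7% from the fibrillar genes. The tables of the tissues were made separately, so these levels stand side by side without a test.

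**Figure D1:**
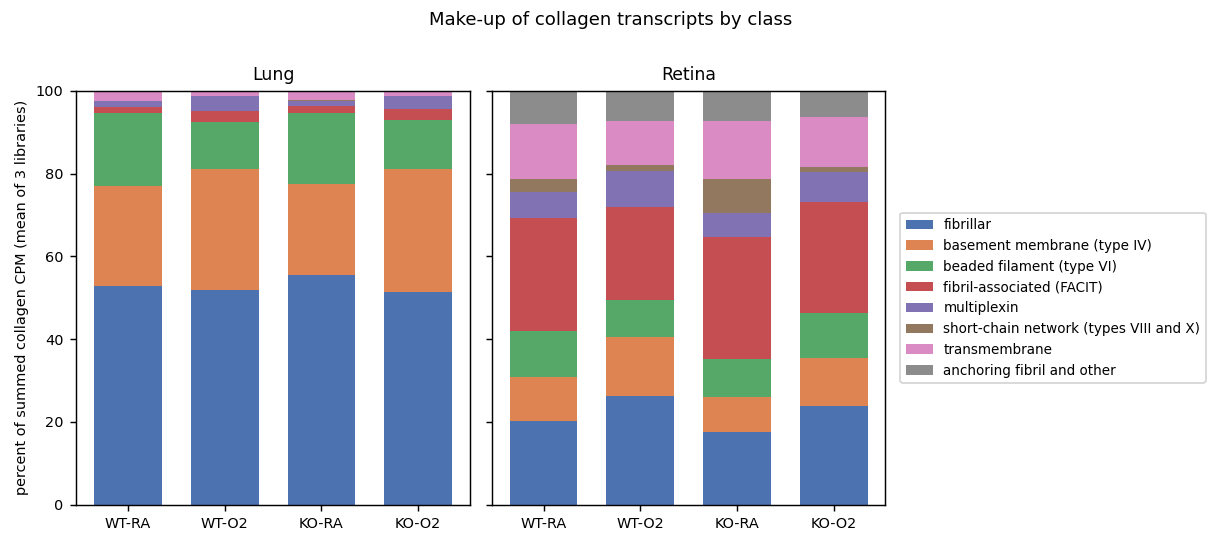
Share of the summed collagen CPM held by each class of collagen gene (vertical axis, percent, mean of 3 libraries) in the 4 groups (horizontal axis) of lung and retina. Fibrillar and type IV genes fill most of the lung bars, with a wider type IV band in WT-O2 and KO-O2, while FACIT and transmembrane genes take a larger share of the retinal bars.

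Per kilobase of the longest coding transcript, Col3a1 was the most abundant lung collagen at a mean of 457 CPM per kb over the 12 libraries, followed by Col4a2 at 393, Col1a1 at 326 and Col1a2 at 302. The spreads of these 4 overlapped, and the next were Col6a1 at 175 and Col6a2 at 142 CPM per kb. In retina the order opened with the vitreous collagens Col9a1 at 16 and Col2a1 at 11.5 CPM per kb, then Col6a1 at 7.65 and Col23a1 at 7.63.

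Hyperoxia changed most collagen genes of the lung, in both directions. In WT lungs 19 of the 41 tested members rose and 9 fell, and 8 in each direction were called at 2-fold. Over all genes, 24.5% rose and 24.7% fell, with 5.04% called higher and 6.57% called lower. In GSDMD-KO lungs 18 members rose and 11 fell, and 8 were called higher and 7 lower. The background there was 23.3% rising, 23.4% falling, 4.57% called higher and 6.03% called lower. The median log2 fold change of the members was 0.33 in WT and 0.31 in GSDMD-KO, beside -0.01 for all tested genes in each genotype. The same 8 members were called higher in both genotypes (Col5a2, Col5a3, Col8a1, Col11a1, Col12a1, Col15a1, Col18a1 and Col28a1). The 7 called lower in GSDMD-KO (Col2a1, Col6a4, Col9a2, Col10a1, Col17a1, Col23a1 and Col24a1) were also called lower in WT, where Col6a5 was the eighth. With a term for the erythroid marker sum, added after the data were seen, which was lower in every WT-O2 library than in every other lung library, 5 members fell in WT in place of 9 and 17 rose in place of 19, and 4 were called lower in place of 8. Shares of all genes were not counted with this term. The 8 changes that no longer passed kept their direction, at adjusted p of 0.144 to 0.735 and with larger SEs. Their log2 fold changes were 1.2 ± 0.56 for Col22a1 and -1.42 ± 0.93 for Col2a1, near or above the values without the term (0.92 ± 0.32 and -1.53 ± 0.52). Those of Col24a1 (-0.38 ± 0.68), Col9a2 (-0.89 ± 0.96) and Col6a5 (-0.63 ± 0.49) were smaller than without it (-1.20 ± 0.41, -1.74 ± 0.54 and -1.12 ± 0.28). Col4a3, Col4a6 and Col6a2 were at 0.42 ± 0.29, 0.35 ± 0.19 and -0.32 ± 0.16, against 0.59 ± 0.17, 0.54 ± 0.11 and -0.44 ± 0.09.

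**Figure D2:**
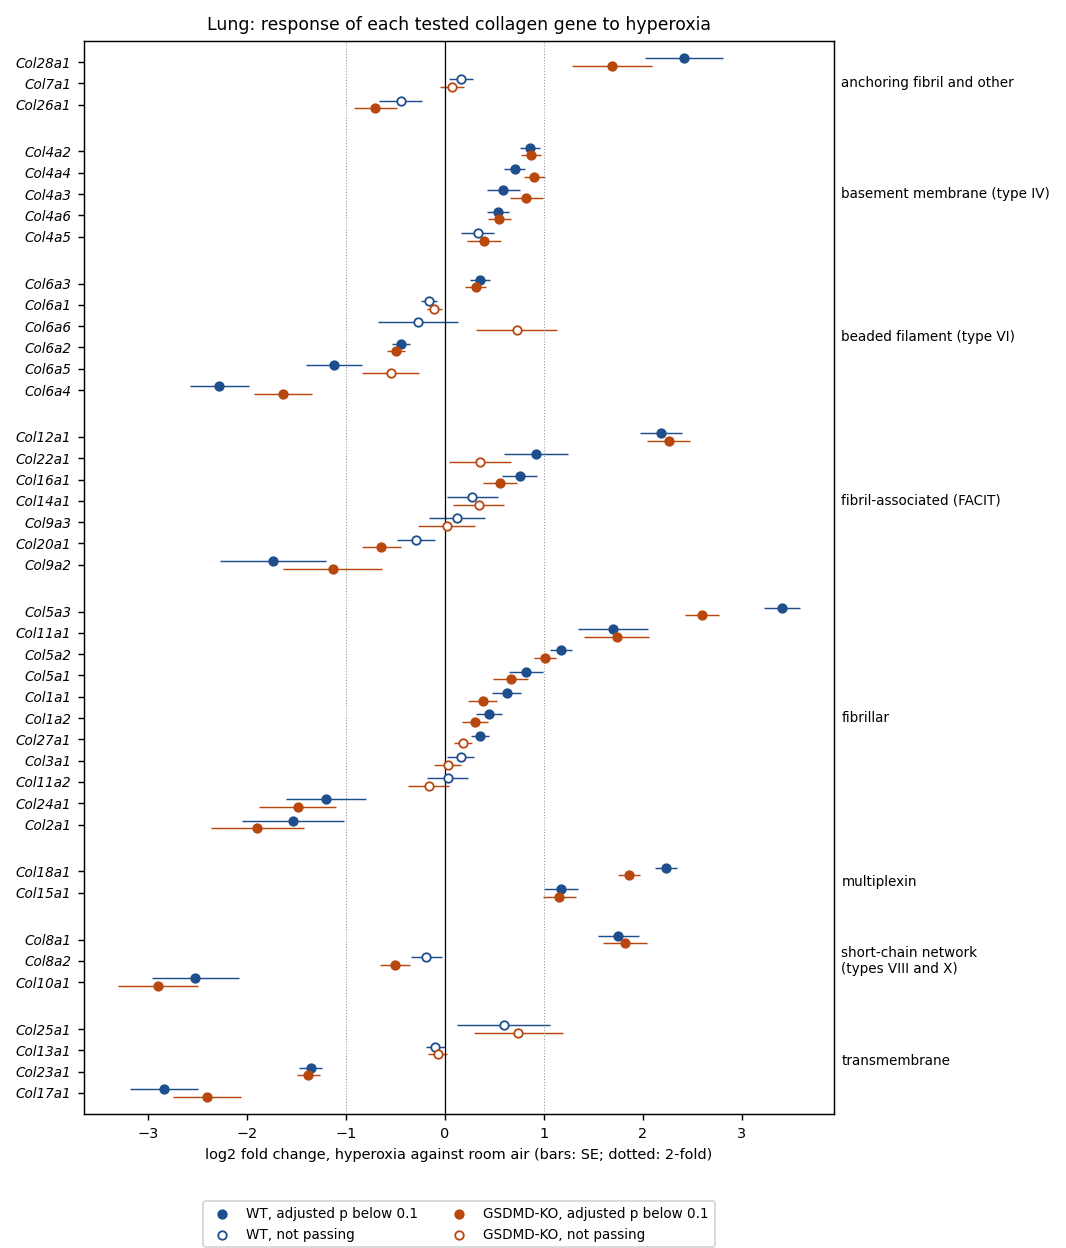
Log2 fold change in hyperoxia against room air (horizontal axis; bars are the SE, dotted lines mark 2-fold) for the 41 tested collagen genes of the lung, grouped by class, in WT (blue) and GSDMD-KO (orange). Filled points passed an adjusted p of 0.1; type IV genes and multiplexins lie right of 0 in both genotypes, while fibrillar, type VI, FACIT, short-chain and transmembrane genes lie on both sides.

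Of the 11 fibrillar genes 7 rose and 2 fell in WT, and 6 rose and 2 fell in GSDMD-KO. Over all lung genes 24.5% rose and 24.7% fell in WT, and 23.3% rose and 23.4% fell in GSDMD-KO. Col5a3, which encodes the type V collagen chain of lowest level in lung, was at 4.71, 7.23 and 5.57 CPM in WT-RA, 62.9, 61.8 and 61.1 in WT-O2, 8.4, 7.03 and 6.48 in KO-RA and 36.1, 40.8 and 55.9 in KO-O2. Its hyperoxic values were all far above the room air values, and the 3 WT-O2 libraries lay above the 3 KO-O2 libraries. The log2 fold change was 3.40 ± 0.18 in WT (adjusted p = 1.54e-08) and 2.60 ± 0.17 in GSDMD-KO (adjusted p = 1.53e-07), the largest rise of any member in each genotype. Col5a2 and Col5a1, the main type V chains, which nucleate type I fibrils, also rose. Col5a2 ranged over 242 to 306 CPM in room air and 501 to 676 in hyperoxia (log2 fold change 1.17 ± 0.11 in WT and 1.01 ± 0.11 in GSDMD-KO). Col5a1 ranged over 223 to 364 CPM in room air and 394 to 601 in hyperoxia, and rose less, by 0.82 ± 0.17 in WT and 0.66 ± 0.17 in GSDMD-KO (log2). Per kb, Col5a3 stood at 0.0213 to 0.0378 of Col5a1 in room air and 0.0885 to 0.195 in hyperoxia. Col11a1, a chain of the related type XI collagen, was low, at 0.419, 0.437 and 0.619 CPM in WT-RA, 1.36, 2.06 and 1.39 in WT-O2, 0.547, 0.862 and 0.983 in KO-RA and 2.13, 3.89 and 1.97 in KO-O2. It rose without overlap of the exposures, by 1.70 ± 0.35 in WT and 1.74 ± 0.33 in GSDMD-KO (log2).

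Of the chains of types I and III, the bulk of interstitial fibrils, Col1a1 and Col1a2 rose by less than 2-fold and Col3a1 did not pass. Col3a1 was at 1886, 2369 and 2874 CPM in WT-RA, 2891, 2502 and 2572 in WT-O2, 2610, 2165 and 2852 in KO-RA and 2607, 2738 and 2433 in KO-O2. The ranges overlapped in both genotypes and the log2 fold changes were 0.16 ± 0.14 (adjusted p = 0.384) in WT and 0.03 ± 0.14 (adjusted p = 0.89) in GSDMD-KO. Col1a1 was at 1110, 1393 and 1849 CPM in WT-RA, 2307, 2123 and 2280 in WT-O2, 1755, 1679 and 1833 in KO-RA and 2338, 2555 and 1964 in KO-O2. Its partner Col1a2, the other chain of type I collagen, was at 1090, 1277 and 1566 CPM in WT-RA, 1963, 1655 and 1746 in WT-O2, 1521, 1398 and 1593 in KO-RA and 1911, 2059 and 1603 in KO-O2. Both rose in WT, by 0.62 ± 0.15 and 0.45 ± 0.13 on the log2 scale, and in GSDMD-KO, by 0.38 ± 0.15 (adjusted p = 0.0562) and 0.30 ± 0.13 (adjusted p = 0.0772). The rises in GSDMD-KO were lost in 4 of the fits that left out 1 library (KO-RA replicate 1 or 2, or KO-O2 replicate 1 or 2), with adjusted p of up to 0.184 for Col1a1 and 0.239 for Col1a2, and with a term for Y-linked expression (0.1 and 0.108). Per kb, Col1a1 stood at 0.918 to 1.065 times Col1a2 in WT-RA and 1.06 to 1.18 in WT-O2. This ratio was 1.04 to 1.08 in KO-RA and 1.10 to 1.12 in KO-O2. Of the remaining fibrillar genes, Col27a1, expressed in cartilage, rose in WT by 0.35 ± 0.09 and was at 0.18 ± 0.09 in GSDMD-KO (adjusted p = 0.136), and Col11a2 did not pass in either genotype.

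A pair of fibrillar genes fell. Col24a1 was at 1.95, 3.4 and 7.43 CPM in WT-RA, 1.71, 1.62 and 2.23 in WT-O2, 8.37, 7.51 and 7.56 in KO-RA and 3.81, 2.73 and 1.84 in KO-O2. WT-RA replicate 3 was closer to the KO-RA libraries than to the other WT-RA libraries, and without it the fall in WT no longer passed (adjusted p = 0.162). The log2 fold change was -1.20 ± 0.41 in WT and -1.49 ± 0.39 in GSDMD-KO. Col2a1, the main collagen of cartilage, ranged over 0.523 to 1.32 CPM in room air and 0.102 to 0.595 in hyperoxia, at most 39 counts in a library, and fell by 1.53 ± 0.52 in WT and 1.89 ± 0.47 in GSDMD-KO (log2). Without WT-O2 replicate 1 the fall in WT had an adjusted p of 0.11. The 8 cartilage markers summed to 10.04 to 13.9 CPM in room air and 22.2 to 45 in hyperoxia. Of the 4 with enough counts 2 rose and 1 fell in WT, where 24.5% of all genes rose and 24.7% fell. In GSDMD-KO 2 rose and 2 fell, beside 23.3% and 23.4% of all genes.

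**Figure D3:**
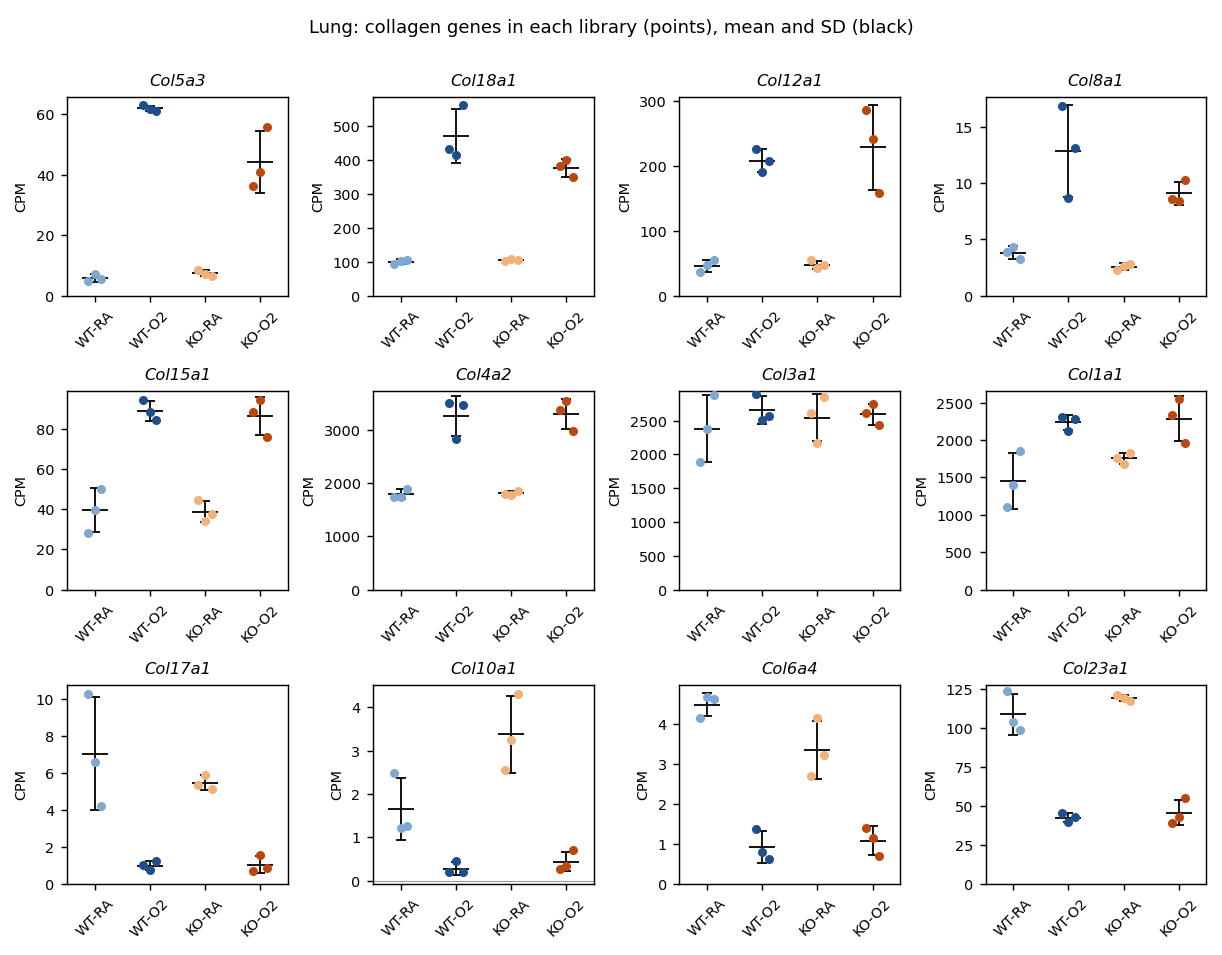
CPM (vertical axes, linear from 0) of 12 collagen genes in each lung library (points) of the 4 groups, with the group mean and SD in black. Col5a3, Col18a1, Col12a1, Col8a1, Col15a1 and Col4a2 lie higher in both O2 groups, Col3a1 overlaps between exposures, and Col17a1, Col10a1, Col6a4 and Col23a1 lie lower.

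The 5 type IV genes examined, from basement membranes, had positive fold changes below 2-fold. All 5 rose in GSDMD-KO and 4 of 5 rose in WT, beside 23.3% and 24.5% of all lung genes. Col4a2, a chain of the network found in nearly every basement membrane, was at 1730, 1743 and 1891 CPM in WT-RA, 3490, 2814 and 3450 in WT-O2, 1783, 1775 and 1845 in KO-RA and 3369, 3525 and 2980 in KO-O2. It rose by 0.86 ± 0.10 in WT (adjusted p = 1.19e-05) and 0.87 ± 0.10 in GSDMD-KO (adjusted p = 1.23e-05). Col4a3 and Col4a4 encode chains of the network shared by the alveolar and glomerular basement membranes. Col4a3 was at 422, 349.5 and 256 CPM in WT-RA, 626, 460.4 and 461 in WT-O2, 324, 277 and 344 in KO-RA and 582, 516 and 570.5 in KO-O2. Col4a4 was at 329, 302 and 239.6 CPM in WT-RA, 520.1, 463 and 437 in WT-O2, 274, 256 and 281 in KO-RA and 514, 485 and 518 in KO-O2. Both were higher in every hyperoxic library than in every room air library of the same genotype, and the log2 fold changes were 0.59 ± 0.17 and 0.71 ± 0.11 in WT and 0.82 ± 0.17 and 0.90 ± 0.11 in GSDMD-KO. The third chain of that network, Col4a5, ranged over 117 to 191 CPM in room air and 187 to 248 in hyperoxia (log2 fold change 0.33 ± 0.17, adjusted p = 0.131, in WT and 0.39 ± 0.17, adjusted p = 0.0802, in GSDMD-KO). Its rise in GSDMD-KO was lost with no filter on low counts, with a term for Y-linked expression and without any of 4 libraries, at adjusted p of 0.101 to 0.224. Col4a6 ranged over 17.2 to 24.6 CPM and 28.5 to 35.7 CPM and rose by 0.54 ± 0.11 and 0.55 ± 0.11.

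Col4a3 and Col4a4 lie head to head on chromosome 1, and only 71 bases separate their annotated starts (GRCm38). This interval is shown whole because it precedes both genes, which rose together. It is read here on the strand of Col4a3, is 69% G and C, and holds none of the promoter motifs searched for (spelled out below with the other starts) on either strand.
Interval between Col4a4 and Col4a3, chr1:82586850-82586920: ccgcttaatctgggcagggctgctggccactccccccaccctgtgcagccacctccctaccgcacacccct
Per kb, Col4a3 stood at 1.18 to 1.52 times Col4a4 in the 12 lung libraries. Col4a5 and Col4a6 are also head to head, on the X chromosome, with 1308 bases between their starts.

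In lung both multiplexins rose in every fit that was run. Col18a1, whose C-terminal fragment is the angiogenesis inhibitor endostatin, was at 92.3, 103 and 105 CPM in WT-RA, 433, 415 and 563 in WT-O2, 101, 107 and 105 in KO-RA and 383, 401 and 349 in KO-O2. The room air libraries spanned a narrow range, and the 3 WT-O2 values lay above the 3 KO-O2 values. The log2 fold change was 2.23 ± 0.11 in WT (adjusted p = 5.48e-09) and 1.86 ± 0.11 in GSDMD-KO (adjusted p = 2.47e-08). Col15a1, a multiplexin of vascular and muscle basement membranes, was at 28.4, 39.9 and 50.3 CPM in WT-RA, 94.5, 88.6 and 84.7 in WT-O2, 44.5, 34 and 37.8 in KO-RA and 88.7, 94.5 and 76.2 in KO-O2. It rose by 1.18 ± 0.17 in WT and 1.16 ± 0.17 in GSDMD-KO. Markers of endothelium had lower sums in hyperoxia in both genotypes, coming to 3713 to 4503 CPM in room air and 2871 to 3610 in hyperoxia. Of these 8, 1 was higher and 5 lower in WT, and 1 was higher and 4 lower in GSDMD-KO. Smooth muscle and myofibroblast markers summed to 720.5 to 1208 CPM in room air and 821 to 1670 in hyperoxia, with 5 of 7 higher in WT and 3 of 7 in GSDMD-KO. Fibroblast markers summed to 946 to 1039 and 744 to 873 CPM, with 3 of 7 higher and 3 lower in each genotype. Over all lung genes 24.5% rose and 24.7% fell in WT, and 23.3% rose and 23.4% fell in GSDMD-KO. The part of these cell types in the collagen changes was not tested.

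FACIT genes were led by Col12a1, a fibril-surface collagen of tissues under tension, at 36, 47.1 and 54.7 CPM in WT-RA, 227, 190.2 and 208 in WT-O2, 54.3, 41.7 and 47.3 in KO-RA and 286, 242 and 158 in KO-O2. The exposures were far apart in both genotypes, and KO-O2 replicate 3 was the lowest of the hyperoxic libraries. The log2 fold changes were 2.18 ± 0.21 in WT (adjusted p = 1.13e-05) and 2.26 ± 0.21 in GSDMD-KO (adjusted p = 9.63e-06). Col16a1 was at 55.4, 63.5 and 99.1 CPM in WT-RA, 119, 118 and 132 in WT-O2, 91.6, 71 and 86.2 in KO-RA and 122, 130 and 114 in KO-O2. It rose by 0.76 ± 0.17 and 0.55 ± 0.17. Col14a1, which resembles Col12a1 in structure, was at 39.8, 48.3 and 68.6 CPM in WT-RA, 71.9, 65.8 and 52.1 in WT-O2, 54.6, 48.2 and 60.1 in KO-RA and 79.6, 83.6 and 43.5 in KO-O2. It overlapped between exposures and passed in neither genotype (adjusted p = 0.427 and 0.329). Col22a1 rose in WT only by the test (0.92 ± 0.32, adjusted p = 0.0325, against 0.35 ± 0.31, adjusted p = 0.402, in GSDMD-KO). This rise was lost without any 1 of 3 libraries (0.106 to 0.197) and with a term for Y-linked expression (0.101). Col20a1 fell in GSDMD-KO (-0.64 ± 0.20) and was at -0.29 ± 0.20 in WT. Neither difference between genotypes passed (interaction adjusted p = 0.893 and 0.893). Of the type IX chains, Col9a2 ranged over 0.384 to 1.75 CPM in room air and 0.206 to 0.525 in hyperoxia and fell, by 1.74 ± 0.54 in WT and 1.14 ± 0.50 in GSDMD-KO (adjusted p = 0.089). The call in WT was lost without WT-RA replicate 3 (adjusted p = 0.198), and that in GSDMD-KO with DESeq2 (0.124), with a term for Y-linked expression (0.138) and without any 1 of 9 libraries (0.103 to 0.246). Col9a3 stayed at 0.69 to 1.48 CPM and did not pass.

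Type VI collagens split by chain. Col6a1, Col6a2 and Col6a3 encode the chains of the common microfilament. Col6a1 was at 728, 754 and 755 CPM in WT-RA, 639, 691 and 668 in WT-O2, 727, 779.9 and 759 in KO-RA and 676, 765 and 666 in KO-O2. It did not pass (log2 fold change -0.16 ± 0.08 in WT and -0.11 ± 0.08 in GSDMD-KO). Col6a2 was at 695, 709.6 and 787 CPM in WT-RA, 508, 575 and 530 in WT-O2, 729, 851 and 843 in KO-RA and 572, 621 and 529.8 in KO-O2. It fell by 0.44 ± 0.09 in WT and 0.49 ± 0.09 in GSDMD-KO. Col6a3 was at 395, 401 and 455 CPM in WT-RA, 582, 506 and 510.2 in WT-O2, 461, 432 and 479 in KO-RA and 657, 535 and 511 in KO-O2. It rose by 0.35 ± 0.10 in WT and 0.31 ± 0.10 in GSDMD-KO, and the rise in GSDMD-KO was lost without KO-RA replicate 2 or KO-O2 replicate 1 (adjusted p = 0.102 and 0.164). Per kb, Col6a1 stood at 1.02 to 1.21 times Col6a2 in room air and 1.34 to 1.43 in hyperoxia. The alternative chain Col6a4 was at 4.15, 4.68 and 4.61 CPM in WT-RA, 1.36, 0.791 and 0.608 in WT-O2, 2.7, 4.14 and 3.22 in KO-RA and 1.4, 1.13 and 0.703 in KO-O2. It fell by 2.28 ± 0.30 in WT and 1.64 ± 0.29 in GSDMD-KO, with no overlap in either genotype. Its neighbour Col6a5 ranged over 1.55 to 2.99 CPM in room air and 0.716 to 1.5 in hyperoxia, with -1.12 ± 0.28 in WT (adjusted p = 0.00563) and -0.55 ± 0.29 in GSDMD-KO (adjusted p = 0.145). Col6a6 passed in neither.

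The short-chain collagens moved in opposite directions. Col8a1, made by endothelium and smooth muscle of remodelling vessels, was at 3.87, 4.34 and 3.23 CPM in WT-RA, 16.8, 8.67 and 13.1 in WT-O2, 2.29, 2.59 and 2.85 in KO-RA and 8.61, 8.43 and 10.3 in KO-O2. Every hyperoxic library lay above every room air library, and the log2 fold change was 1.75 ± 0.21 in WT and 1.82 ± 0.22 in GSDMD-KO. Col8a2, its partner chain, was at 11.6, 10.8 and 9.01 CPM in WT-RA, 9.27, 8.88 and 9.42 in WT-O2, 10.7, 12.4 and 14.7 in KO-RA and 7.52, 8.21 and 10.9 in KO-O2. It fell in GSDMD-KO by 0.50 ± 0.16 and had a log2 fold change of -0.19 ± 0.16 in WT (adjusted p = 0.363), and Col8a1 per kb stood at 0.165 to 0.342 of Col8a2 in room air and 0.798 to 1.54 in hyperoxia. Col10a1, the collagen of hypertrophic cartilage, was at 2.48, 1.21 and 1.27 CPM in WT-RA, 0.205, 0.447 and 0.203 in WT-O2, 2.56, 3.24 and 4.31 in KO-RA and 0.28, 0.354 and 0.703 in KO-O2. The exposures did not overlap, and it fell by 2.52 ± 0.44 in WT and 2.90 ± 0.40 in GSDMD-KO.

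Of the transmembrane collagens, Col17a1, a component of the hemidesmosomes that fix epithelium to its basement membrane, was at 10.3, 6.59 and 4.2 CPM in WT-RA, 0.989, 0.723 and 1.22 in WT-O2, 5.33, 5.89 and 5.12 in KO-RA and 0.7, 1.56 and 0.836 in KO-O2. It fell by 2.84 ± 0.34 in WT (adjusted p = 1.85e-05) and 2.40 ± 0.34 in GSDMD-KO (adjusted p = 8.68e-05). Col23a1 was more abundant, at 124, 104 and 99 CPM in WT-RA, 45.1, 39.8 and 42.6 in WT-O2, 121, 119 and 118 in KO-RA and 39.3, 42.9 and 55.1 in KO-O2. Its exposures did not overlap and it fell by 1.36 ± 0.12 in WT and 1.38 ± 0.12 in GSDMD-KO. Col13a1, a collagen of cell-matrix junctions, was at 114, 135 and 107 CPM in WT-RA, 109, 112 and 113 in WT-O2, 109, 104 and 127 in KO-RA and 108, 111 and 104 in KO-O2. Its groups overlapped and the log2 fold changes were -0.10 ± 0.09 and -0.07 ± 0.09. Col25a1 was at 1.71, 1.41 and 5.4 CPM in WT-RA, 5.18, 4.3 and 3.38 in WT-O2, 5.16, 2.9 and 4 in KO-RA and 7.24, 4.11 and 8.83 in KO-O2. It varied widely within groups and did not pass (adjusted p = 0.339 and 0.22). Markers of alveolar type 1 epithelium summed to 3302 to 3775 CPM in room air and 3039 to 3375 in hyperoxia. Of these 6, 1 rose and 2 fell in WT, and 1 rose and 1 fell in GSDMD-KO. Over all lung genes 24.5% rose and 24.7% fell in WT, and 23.3% rose and 23.4% fell in GSDMD-KO. The log2 fold change was positive for 4 of the 6 in each genotype. The part of this epithelium in the falls of Col17a1 and Col23a1 was not tested.

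The remaining members were Col7a1, the anchoring fibril of skin and mucosa, Col26a1 and Col28a1. Col7a1 was at 12.4, 13.8 and 11.1 CPM in WT-RA, 12.9, 13.9 and 14.9 in WT-O2, 13.6, 11.2 and 14.6 in KO-RA and 14, 12.7 and 14.8 in KO-O2. No group stood apart, and the log2 fold changes were 0.16 ± 0.12 and 0.07 ± 0.12. Col26a1 was at 2.76, 3.13 and 3.1 CPM in WT-RA, 2.15, 2.86 and 1.59 in WT-O2, 3.35, 3.17 and 3.63 in KO-RA and 2.48, 1.74 and 2.01 in KO-O2. It fell in GSDMD-KO by 0.70 ± 0.22 (adjusted p = 0.0195) and had a log2 fold change of -0.45 ± 0.22 in WT (adjusted p = 0.117). Col28a1, a collagen with von Willebrand factor A domains, was at 0.349, 0.639 and 0.447 CPM in WT-RA, 3.03, 1.69 and 3.01 in WT-O2, 0.342, 0.517 and 0.644 in KO-RA and 1.29, 2.55 and 1.04 in KO-O2. It was low everywhere but separated by exposure, with a rise of 2.42 ± 0.40 in WT and 1.69 ± 0.40 in GSDMD-KO.

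Stretches of 120 bases before the start were read for members that changed in the lung, and are shown for 2 that rose in both tissues (Col5a3 and Col15a1) and 2 that fell at least 2-fold in lung in both genotypes (Col10a1 and Col23a1). RefSeq windows (GRCm38.p6) were found for 34 of the 43 members. Capitals mark any match to the GC box, spelled GGGCGG, the TATA box, spelled TATAAA, the CCAAT box or the AP-1 site, which Fos and Jun bind and which was spelled TGANTCA. All were searched on both strands over windows from 250 bases before to 50 after the start, and a match that runs past an end of the stretch shown is capitalised in part.
Col5a3, minus strand, chr9:20815068-20815187: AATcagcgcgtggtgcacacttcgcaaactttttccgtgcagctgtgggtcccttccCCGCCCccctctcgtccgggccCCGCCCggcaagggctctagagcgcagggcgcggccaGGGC
Col15a1, plus strand, chr4:47207892-47208011: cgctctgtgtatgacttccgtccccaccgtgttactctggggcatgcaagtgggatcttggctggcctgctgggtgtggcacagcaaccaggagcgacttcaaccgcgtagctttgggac
Col10a1, plus strand, chr10:34389861-34389980: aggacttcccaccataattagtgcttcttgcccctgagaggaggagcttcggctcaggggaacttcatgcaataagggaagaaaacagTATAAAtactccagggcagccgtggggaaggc
Col23a1, plus strand, chr11:51289800-51289919: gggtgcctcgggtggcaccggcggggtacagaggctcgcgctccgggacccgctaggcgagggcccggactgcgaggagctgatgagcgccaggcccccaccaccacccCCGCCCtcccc
A GC box was present in 59.5% of the 37 collagen windows and 35.7% of all 32851 windows. A CCAAT box was present in 32.4% and 37.4%, a TATA box in 13.5% and 13.6%, and an AP-1 site in 2.7% and 7.81%. These matches are descriptions of letters and not evidence of binding.

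Genes that fold, process, link and bind collagen are given beside the shares of all lung genes, of which 24.5% rose and 24.7% fell in WT and 23.3% rose and 23.4% fell in GSDMD-KO. Of 20 genes for folding and modification, 10 rose and 2 fell in WT and 10 rose in GSDMD-KO. They included Colgalt1, a collagen galactosyltransferase (0.81 ± 0.07 in WT and 0.72 ± 0.07 in GSDMD-KO, log2), and the prolyl 3-hydroxylase P3h2 (0.65 ± 0.08 and 0.79 ± 0.08). Of 12 tested genes for processing and cross-linking, 7 rose and 3 fell in WT and 5 rose and 3 fell in GSDMD-KO. Among them Loxl4, a lysyl oxidase that cross-links collagen, rose by 2.30 ± 0.19 and 2.17 ± 0.19, while Pcolce2, an enhancer of procollagen cleavage, fell by 2.00 ± 0.12 and 1.74 ± 0.12. Of 9 receptor and uptake genes, 4 rose and 3 fell in WT and 3 rose and 2 fell in GSDMD-KO. The receptor kinase Ddr1 rose (0.56 ± 0.08 and 0.55 ± 0.08), and the integrin chain Itga1 fell by 0.95 ± 0.11 and 0.67 ± 0.11.

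The same shares of all lung genes (24.5% and 24.7% in WT, 23.3% and 23.4% in GSDMD-KO) stand beside the next counts. Of 6 tested collagen-cleaving enzymes, 3 rose in WT and 4 in GSDMD-KO and none fell. Mmp2, which cleaves denatured and type IV collagen, rose by 1.21 ± 0.12 and 1.24 ± 0.12, and the collagenase Mmp13 by 3.06 ± 0.37 and 2.79 ± 0.38. Among 15 other basement membrane proteins, 10 rose and 1 fell in WT and 11 rose and 1 fell in GSDMD-KO. The laminin chains Lamb3 (1.12 ± 0.07 and 1.16 ± 0.07) and Lama3 (1.03 ± 0.12 and 1.19 ± 0.12) rose in both genotypes, as the type IV collagens Col4a2, Col4a3, Col4a4 and Col4a6 did. Of 16 tested fibril-binding proteins, 8 rose and 5 fell in each genotype, including rises of fibronectin, Fn1 (1.52 ± 0.14 and 1.25 ± 0.14), and fibromodulin, Fmod (1.29 ± 0.14 and 1.34 ± 0.14).

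No collagen gene differed between the genotypes in lung by the edgeR test. In hyperoxia the lowest adjusted p among the 41 members was 0.594 and 0 passed, against 0.0416% of all genes. At an unadjusted p below 0.05 there were 4 members (Col5a3, Col18a1, Col8a1 and Col11a1), against 1045 of all 16819 genes. DESeq2 gave 0 members at an adjusted p below 0.1. The log2 fold changes of KO-O2 against WT-O2 ran from -0.66 to 0.73 with a median of 0.06. Col5a3 and Col18a1, whose KO-O2 values lay below all WT-O2 values, were at -0.48 ± 0.16 and -0.32 ± 0.11. Such a lack of overlap in either direction was found for 2 of 41 members and for 2046 of all 16819 genes. In room air 0 passed, against 0.488% of all genes, and DESeq2 also gave 0. At an unadjusted p below 0.05 there were 4 members (Col10a1, Col8a1, Col24a1 and Col27a1), against 1762 of all 16819 genes. Without WT-RA replicate 3, whose fibrillar sum was the highest of its group, Col1a1, Col16a1, Col24a1 and Col25a1 passed as higher in KO-RA, by 0.49 ± 0.12, 0.48 ± 0.11, 1.54 ± 0.28 and 1.36 ± 0.35 on the log2 scale. The share of all genes passing in that fit was not counted, and the 0.488% belongs to the fit of all 12 libraries. For the interaction of genotype and hyperoxia 0 members passed, against 0.00595% of all genes. Col5a3 (-0.81 ± 0.24, adjusted p = 0.499) and Col18a1 (-0.37 ± 0.15, adjusted p = 0.682) were the members with an unadjusted p below 0.05, against 1130 of all 16819 genes. DESeq2 gave 0 members. In the hyperoxic groups, 7 erythroid genes summed to 2920 to 4152 CPM in WT-O2 and to 26290, 29930 and 5970 in KO-O2. All 7 had an unadjusted p below 0.05 by the edgeR test between these groups, and 0 passed.

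In retina far fewer collagen genes responded to hyperoxia, and 4 of the 5 that did in WT were fibrillar. In WT 5 of the 43 members rose and 0 fell, and all 5 were called at 2-fold (Col2a1, Col3a1, Col5a2, Col5a3 and Col15a1). At an unadjusted p below 0.05 there were 10 of 43 members in either direction, against 3332 of all 19173 genes. The background with edgeR was 3.11% rising and 2.05% falling, with 1.77% called higher and 0.266% called lower. DESeq2 passed 7 members, and its share of all genes was not counted. In GSDMD-KO 6 rose and 2 fell, of which 4 were called higher (Col2a1, Col4a2, Col5a3 and Col15a1) and 2 lower (Col8a1 and Col8a2). There 4.38% of all genes rose and 3.44% fell, with 1.64% called higher and 0.553% called lower. The median log2 fold change of the members was 0.07 in WT and 0.30 in GSDMD-KO, beside 0.00092 and 0.00074 for all tested genes. Col2a1, Col5a3 and Col15a1 were called in both genotypes. Without the 3 lens-rich libraries 4 members passed in GSDMD-KO in place of 8.

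**Figure D4:**
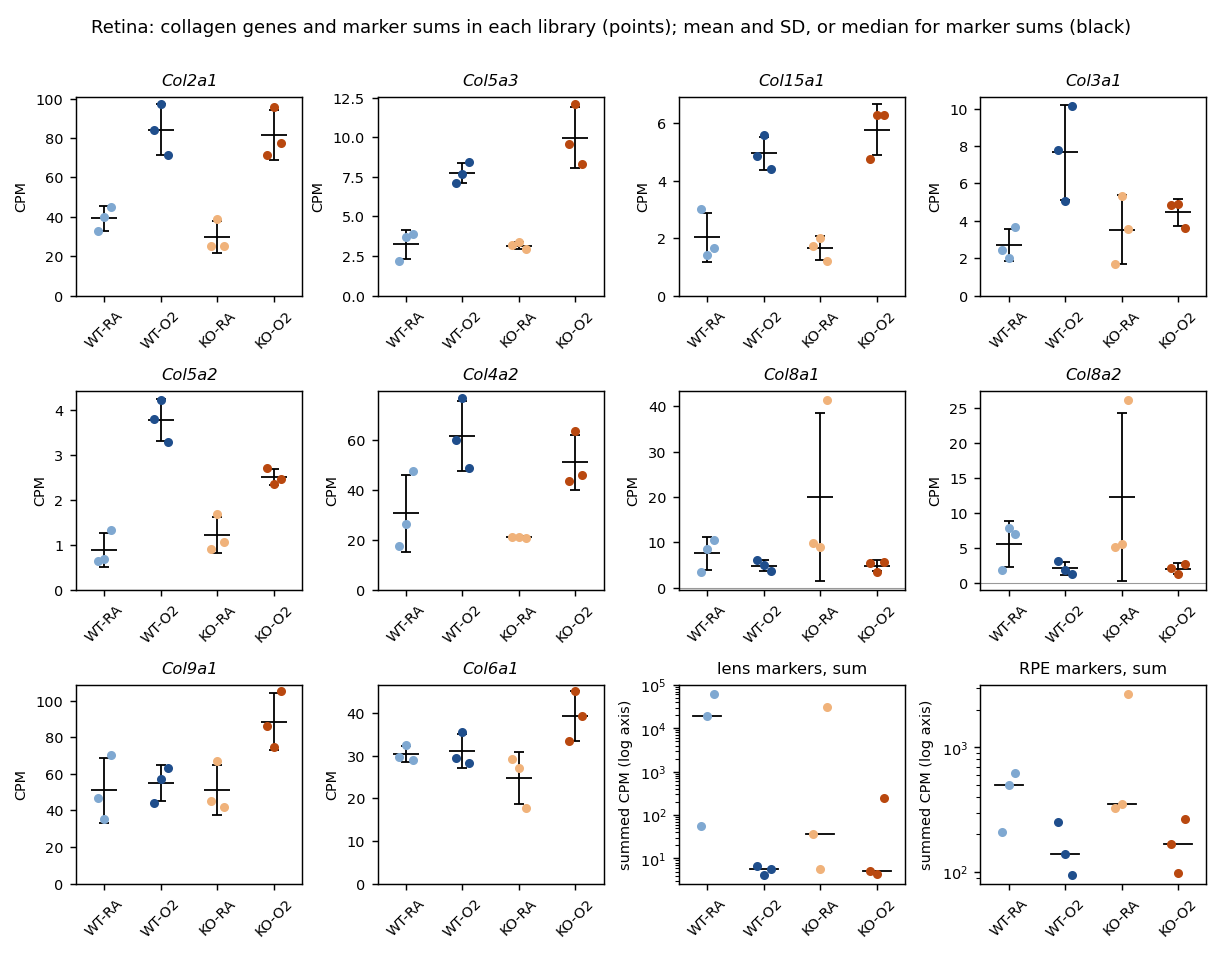
CPM (linear axes from 0) of 10 collagen genes in each retinal library (points) with the group mean and SD in black, and the summed CPM of lens and retinal pigment epithelium (RPE) markers on log axes with the group median in black. Col2a1, Col5a3 and Col15a1 lie higher in both O2 groups, and KO-RA replicate 3 stands far above the rest for Col8a1, Col8a2 and the RPE sum.

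Col2a1, the vitreous and cartilage fibril collagen, was at 32.7, 39.99 and 45.1 CPM in WT-RA, 84.2, 97.2 and 71.2 in WT-O2, 25, 39.1 and 25 in KO-RA and 71.5, 95.8 and 77.7 in KO-O2. All hyperoxic retinas lay above all room air retinas, and it rose by 1.10 ± 0.20 in WT (log2, adjusted p = 0.0171) and 1.46 ± 0.20 in GSDMD-KO (adjusted p = 0.00492). Col5a3 was at 2.2, 3.7 and 3.85 CPM in WT-RA, 7.12, 7.67 and 8.41 in WT-O2, 3.18, 3.36 and 2.94 in KO-RA and 9.54, 12.1 and 8.31 in KO-O2. It also separated the exposures, with 1.25 ± 0.22 in WT (adjusted p = 0.0149) and 1.66 ± 0.22 in GSDMD-KO (adjusted p = 0.00425). Per kb, Col5a3 stood at 1.69 to 6.4 times Col5a1 in the retinal libraries, unlike in lung. These rises of Col2a1 and Col5a3 passed in every alternative that was run. Col5a2 was at 0.64, 0.686 and 1.33 CPM in WT-RA, 3.81, 4.24 and 3.3 in WT-O2, 0.912, 1.68 and 1.07 in KO-RA and 2.71, 2.36 and 2.48 in KO-O2. It rose in WT by 2.10 ± 0.34 (adjusted p = 0.00912), again in every alternative, and had 1.04 ± 0.32 in GSDMD-KO (adjusted p = 0.102). Col3a1 was at 2.44, 2.02 and 3.64 CPM in WT-RA, 7.81, 5.05 and 10.1 in WT-O2, 1.69, 5.35 and 3.54 in KO-RA and 4.82, 4.89 and 3.63 in KO-O2. It rose in WT by 1.51 ± 0.40 (adjusted p = 0.0744), a call lost without WT-RA replicate 1 or the library labelled WT-RA replicate 2, WT-O2 replicate 1 or 3, or KO-O2 replicate 2 (adjusted p of up to 0.225). The call was also lost with a term for Y-linked expression (0.197) or RPE markers (0.165) and without the 2 libraries whose Gsdmd went against the label (0.258). Over these fits the log2 fold change was 1.26 to 1.59, near the 1.51 of the fit above, and the SE was 0.41 to 0.49 in place of 0.40. Excluding the lens-rich libraries left WT-RA replicate 1 as the only retina of its group, and the log2 fold change was then 1.65 ± 0.65. In GSDMD-KO Col3a1 was at 0.33 ± 0.39 (adjusted p = 0.691).

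Other fibrillar genes of the retina did not pass. Col27a1 was at 7.08, 13.9 and 10.6 CPM in WT-RA, 6.81, 8.01 and 6.43 in WT-O2, 10.1, 10.4 and 6.28 in KO-RA and 7.29, 10.1 and 8.92 in KO-O2. Col11a1, which co-assembles with type II collagen, was at 9.44, 6.9 and 8.14 CPM in WT-RA, 4.12, 7.36 and 5.75 in WT-O2, 5.88, 8.85 and 5.12 in KO-RA and 3.64, 3.56 and 5.87 in KO-O2. Their log2 fold changes were -0.57 ± 0.26 and -0.50 ± 0.28 in WT and -0.02 ± 0.25 and -0.60 ± 0.28 in GSDMD-KO. The type I chains were scarce and variable, with Col1a1 at 0.52 to 5.82 CPM and Col1a2 at 2.19 to 8.1, and KO-RA replicate 2 and WT-RA replicate 3 were the highest libraries for both. Fibroblast markers were likewise highest in those libraries, summing to 22.1 CPM in WT-RA replicate 3 and 15.9 in KO-RA replicate 2 against 5.84 to 12.0 in the other 10. Col1a1, Col1a2, Col5a1, Col11a2 and Col24a1 had log2 fold changes of -0.90 to 0.61 over both genotypes.

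**Figure D5:**
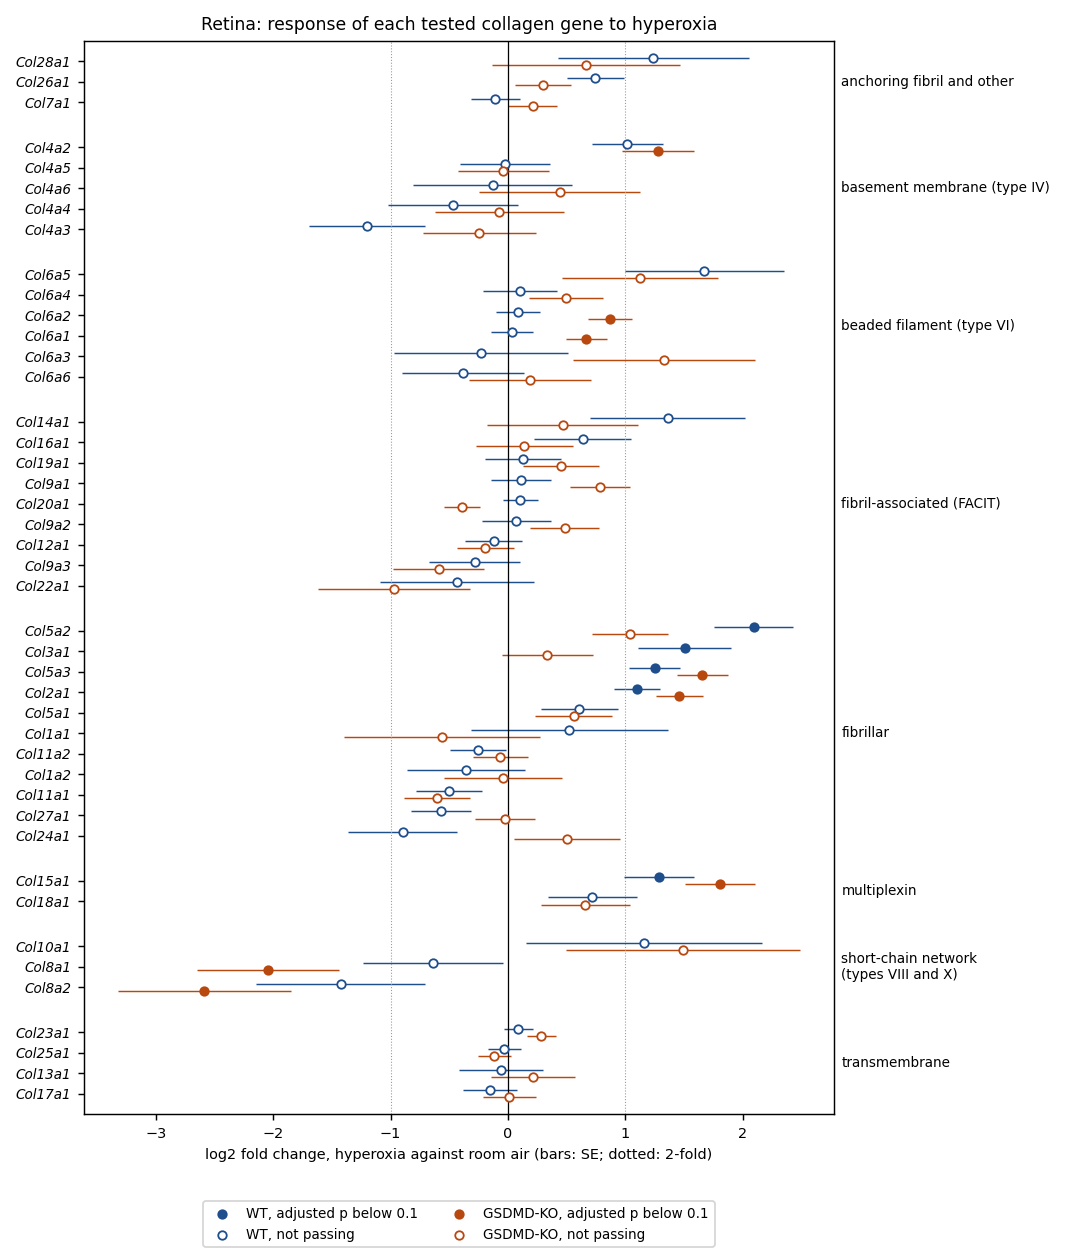
Log2 fold change in hyperoxia against room air (horizontal axis; bars are the SE, dotted lines mark 2-fold) for the 43 collagen genes of the retina, grouped by class, in WT (blue) and GSDMD-KO (orange). Filled points passed an adjusted p of 0.1; most points are open, and the filled ones right of 0 include Col2a1, Col5a3 and Col15a1 in both genotypes.

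Of the basement membrane genes Col4a2 was at 17.6, 26.4 and 47.4 CPM in WT-RA, 59.7, 76.5 and 48.7 in WT-O2, 21.1, 21.2 and 20.6 in KO-RA and 43.5, 63.5 and 45.8 in KO-O2. The exposures did not overlap in either genotype, but the 3 WT-RA retinas spread widely. The rise was 1.28 ± 0.30 in GSDMD-KO (adjusted p = 0.044), and WT had 1.02 ± 0.30 (adjusted p = 0.11). The call in GSDMD-KO was lost without KO-RA replicate 1, 2 or 3 or KO-O2 replicate 2, at adjusted p of 0.11 to 0.175, with a term for RPE markers (0.162) and without the 2 libraries of discordant Gsdmd (0.107). The multiplexin Col15a1 was at 3, 1.41 and 1.67 CPM in WT-RA, 4.85, 5.58 and 4.42 in WT-O2, 1.72, 2.02 and 1.19 in KO-RA and 4.75, 6.29 and 6.28 in KO-O2. It rose by 1.29 ± 0.30 in WT (adjusted p = 0.046) and 1.81 ± 0.30 in GSDMD-KO (adjusted p = 0.0112). In WT the rise was lost without the library labelled WT-RA replicate 2 or without WT-O2 replicate 1 or 2 (0.115 to 0.156) and with only the 6 compared samples (0.105). It was also lost with a term for Y-linked expression (0.15) or RPE markers (0.121) and without the 2 of discordant Gsdmd (0.202). The log2 fold change was 1.01 to 1.34 in these fits. Excluding the lens-rich libraries left WT-RA replicate 1 as the only retina of its group, and the log2 fold change was then 0.72. In GSDMD-KO the rise was lost with the RPE term (0.124). Col18a1 was at 12.1, 20.1 and 39.6 CPM in WT-RA, 32, 55.3 and 30.7 in WT-O2, 18.5, 21.3 and 23.3 in KO-RA and 25.3, 40 and 34.2 in KO-O2. It overlapped in WT and passed in neither genotype (0.72 ± 0.38 and 0.66 ± 0.38, adjusted p = 0.362 and 0.368).

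Vascular markers moved in the same direction as these genes. Endothelial markers summed to 113 to 142 CPM in room air and 176 to 243 in hyperoxia, with 6 of 8 higher in WT and 5 of 8 in GSDMD-KO. Pericyte markers summed to 72.8 to 98.7 and 118 to 229.5 CPM, with 6 of 6 and 4 of 6 higher. Over all retinal genes 3.11% rose in WT and 4.38% in GSDMD-KO. The part of these vascular cells in the rises of Col4a2, Col5a3 and Col15a1 was not tested. The other type IV genes did not pass. Col4a3 was at 1.6, 3.2 and 8.05 CPM in WT-RA, 1.89, 1.65 and 2.04 in WT-O2, 2.6, 3.26 and 6.2 in KO-RA and 3.23, 3.76 and 3.19 in KO-O2. Col4a5 was at 3.8, 4.12 and 11.1 CPM in WT-RA, 4.5, 7.73 and 6.37 in WT-O2, 3.55, 6.39 and 4.85 in KO-RA and 5.52, 4.55 and 4.34 in KO-O2. Both were highest in WT-RA replicate 3, the library with the highest lens sum, as were Col4a4 (0.8 to 5.05 CPM over all libraries) and Col4a6 (0.24 to 2.44 CPM). The part of lens tissue in these values was not tested.

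Col8a1 was at 3.56, 8.65 and 10.6 CPM in WT-RA, 6.04, 4.99 and 3.64 in WT-O2, 9.87, 8.98 and 41.5 in KO-RA and 5.41, 3.45 and 5.73 in KO-O2. Col8a2, a collagen of the corneal endothelial membrane, was at 1.8, 7.89 and 6.94 CPM in WT-RA, 3.08, 1.9 and 1.23 in WT-O2, 5.17, 5.62 and 26.1 in KO-RA and 2.08, 1.3 and 2.75 in KO-O2. KO-RA replicate 3 was the highest retina for both by a wide margin. In GSDMD-KO they fell by 2.04 ± 0.60 (adjusted p = 0.0922) and 2.59 ± 0.74 (adjusted p = 0.0813). RPE markers summed to 2692 CPM in KO-RA replicate 3 and to 95.1 to 620.1 in the other 11 libraries. Without KO-RA replicate 3 the adjusted p was 0.256 for Col8a1 and 0.243 for Col8a2, and with a term for the RPE sum it was 0.659 and 0.501. Both calls were also lost in most other fits that left out 1 library, with the 6 compared samples alone and with no filter on low counts. In WT the genes were at -0.64 ± 0.59 (adjusted p = 0.646) and -1.42 ± 0.72 (adjusted p = 0.341). Col10a1 was at 0.2, 0.0381 and 0.3 CPM in WT-RA, 0.0385, 0.249 and 0.919 in WT-O2, 0.27, 0.235 and 0.119 in KO-RA and 0.798, 0.513 and 0.475 in KO-O2. It reached 27 counts at most and did not pass.

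The type VI chains Col6a1 and Col6a2 rose in GSDMD-KO retinas, and the interaction with genotype did not pass. Col6a1 was at 29.7, 32.4 and 28.9 CPM in WT-RA, 29.5, 35.6 and 28.2 in WT-O2, 29.2, 27 and 17.8 in KO-RA and 33.4, 45.2 and 39.3 in KO-O2. Col6a2 was at 7.6, 7.55 and 7.5 CPM in WT-RA, 7.62, 8.42 and 8 in WT-O2, 7.98, 6.42 and 4.81 in KO-RA and 9.4, 14.2 and 11.5 in KO-O2. They rose in GSDMD-KO, by 0.67 ± 0.18 (adjusted p = 0.0613) and 0.87 ± 0.19 (adjusted p = 0.0324), and KO-RA replicate 3 was the lowest retina for both. In WT the log2 fold changes were 0.04 ± 0.18 and 0.09 ± 0.19. The interaction was 0.63 ± 0.25 for Col6a1 (adjusted p = 0.399) and 0.78 ± 0.27 for Col6a2 (adjusted p = 0.329). Both rises were lost with only the 6 compared samples (0.143 and 0.115), without KO-O2 replicate 2 (0.233 and 0.145), without the lens-rich libraries (0.167 and 0.128), with a term for RPE markers (0.37 and 0.25) and without the 2 of discordant Gsdmd (0.16 and 0.102). The rise of Col6a1 was also lost without KO-RA replicate 3 (0.133) or the library labelled KO-O2 replicate 3 (0.132) and with a term for Y-linked expression (0.119). Col6a1 was at 3.61 to 4.87 times Col6a2 per kb. Col6a4 was at 2.64, 2.9 and 3.21 CPM in WT-RA, 2.89, 3.59 and 2.93 in WT-O2, 3.45, 3.56 and 1.87 in KO-RA and 2.67, 6.08 and 3.8 in KO-O2. It passed in neither genotype, nor did Col6a3, Col6a5 and Col6a6, which lay between 0.12 and 3.38 CPM.

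FACIT genes, the largest class by counts in several retinas, did not pass in either genotype. Col9a1, a type IX chain that coats type II fibrils in the vitreous, was at 47, 35.5 and 70.5 CPM in WT-RA, 44.2, 57.3 and 63.4 in WT-O2, 45.4, 66.9 and 41.8 in KO-RA and 86, 74.4 and 105 in KO-O2. The 3 KO-O2 retinas lay above all others, but the difference in GSDMD-KO did not pass (0.78 ± 0.26, adjusted p = 0.116) and WT had 0.11 ± 0.26. Col9a3 was at 19.7, 17.5 and 32.2 CPM in WT-RA, 18.5, 22.9 and 15.5 in WT-O2, 15.2, 22.5 and 50.1 in KO-RA and 21.6, 16.6 and 20.01 in KO-O2. It was highest in KO-RA replicate 3. Col20a1 was at 16.6, 23.2 and 16.6 CPM in WT-RA, 19.6, 23.6 and 17.5 in WT-O2, 17.5, 18.2 and 16.2 in KO-RA and 12.1, 14.1 and 13.4 in KO-O2. The remaining FACIT genes had mean levels from below 1 CPM (Col14a1, Col19a1 and Col22a1) to 9.41 CPM (Col9a2), and log2 fold changes between -0.97 and 1.36.

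No transmembrane collagen passed in retina. Col23a1 was at 42, 39.1 and 38.5 CPM in WT-RA, 39.2, 48.8 and 39.1 in WT-O2, 39.5, 47.3 and 35.6 in KO-RA and 45.6, 50.01 and 53.5 in KO-O2. Col25a1, a collagen of neurons, was at 6.12, 6.52 and 7.45 CPM in WT-RA, 5.62, 7.2 and 6.84 in WT-O2, 8.01, 7.97 and 7.55 in KO-RA and 6.66, 7.25 and 7.8 in KO-O2. Col17a1 was at 4.24, 3.89 and 3.17 CPM in WT-RA, 2.77, 3.52 and 3.88 in WT-O2, 4.56, 6.09 and 4.97 in KO-RA and 6.28, 5.71 and 3.77 in KO-O2. With Col13a1 their log2 fold changes for hyperoxia lay between -0.15 and 0.29, and none passed. Col7a1 was at 17.9, 25.3 and 19.4 CPM in WT-RA, 16.5, 23 and 18.6 in WT-O2, 14.7, 20.2 and 13.9 in KO-RA and 16.3, 24 and 16.2 in KO-O2. Col26a1 was at 10.1, 13.1 and 8.35 CPM in WT-RA, 14.1, 24.1 and 14.5 in WT-O2, 9.9, 15.2 and 10.8 in KO-RA and 15.6, 15.3 and 13.3 in KO-O2. Col28a1 was at 0.16, 0.0381 and 0.428 CPM in WT-RA, 0.616, 0.499 and 0.374 in WT-O2, 0.169, 0.168 and 0.397 in KO-RA and 0.416, 0.41 and 0.339 in KO-O2. Of these 3, Col26a1 did not overlap between exposures in WT, where it had 0.74 ± 0.24 (adjusted p = 0.138).

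The companion genes that passed for hyperoxia against room air in retina all rose. Over all genes 3.11% rose and 2.05% fell in WT and 4.38% rose and 3.44% fell in GSDMD-KO. Between the hyperoxic genotypes, 2 of 20 genes for folding and modification passed as lower in KO-O2, beside 0.704% of all retinal genes. Of 20 genes for folding and modification 4 rose in WT and 3 in GSDMD-KO, and Serpinh1, the collagen chaperone HSP47, was at 1.55 ± 0.21 in WT (adjusted p = 0.00321) and 0.59 ± 0.20 in GSDMD-KO (adjusted p = 0.129). Of 11 tested genes for processing and cross-linking 3 rose in each genotype, led by Loxl2 (1.75 ± 0.20 and 1.59 ± 0.20). Of 8 receptor and uptake genes 3 rose in each, with Itga1 at 1.75 ± 0.20 in WT and 0.77 ± 0.19 in GSDMD-KO. In the lung Itga1 fell. Of 4 cleaving enzymes Mmp14 rose in both (0.74 ± 0.15 and 0.74 ± 0.15). Of 15 other basement membrane proteins 3 rose in each, led by the vascular laminin chain Lama4 (2.09 ± 0.22 and 1.57 ± 0.21), and of 15 fibril-binding proteins 5 rose in each, led by Fn1 (1.63 ± 0.22 and 1.61 ± 0.22).

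Between genotypes no retinal collagen gene passed with edgeR. In hyperoxia 0 of 43 passed, against 1.27% of all genes. An unadjusted p below 0.05 was reached by 5 members (Col20a1, Col24a1, Col6a2, Col17a1 and Col9a1), against 2412 of all 19173 genes. Col20a1 was nearest, at -0.62 ± 0.15 (adjusted p = 0.115), and its 3 KO-O2 retinas lay below all 3 WT-O2 retinas. These groups did not overlap for 9 of 43 members and for 3816 of all 19173 genes. Col20a1 was the 1 member to pass with DESeq2 (adjusted p = 0.0144) and without the library labelled WT-RA replicate 2 (0.0923). In room air 0 passed, against 0.00522% of all genes, and DESeq2 also gave 0. An unadjusted p below 0.05 was reached by 2 members (Col6a3 and Col8a1), against 2427 of all 19173 genes. For the interaction 0 passed, against 0.00522% of all genes, and DESeq2 also gave 0. An unadjusted p below 0.05 was reached by 4 members (Col6a2, Col6a1, Col20a1 and Col5a2), against 2035 of all 19173 genes. Without the 2 libraries whose Gsdmd went against the label, 0 members passed in all 3 of these comparisons.

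Side by side, the tissues shared some responding members and differed in others, and since dose, days, age and recovery in room air differed between them no test was made. Col5a3 and Col15a1 were called higher in both genotypes of both tissues, and Col5a2 in both genotypes of lung and in WT retina. Col2a1 fell in lung, where it reached at most 1.32 CPM, and rose in retina, where it was the second most abundant member per kb. Col12a1, Col18a1 and Col11a1 were called higher in lung and did not pass in retina. Col17a1 and Col23a1 were called lower in lung, while in retina they had log2 fold changes of -0.15 and 0.09 in WT and did not pass.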

How the data were processed

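Whole lungs and retinas of WT and GSDMD-KO mice were profiled by bulk RNA-seq, 3 mice per group, 4 groups and 12 libraries per tissue. The authors deposited estimated counts per gene, made with kallisto and tximport after FastQC. The submitters' notes name mm10 and the supplemental methods GRCm39, so no coordinate was taken from the count tables. Both tables were rounded to whole numbers. Of the nonzero deposited values 44.9% in lung and 0.35% in retina lay within 0.001 of a whole number, so levels were compared within a tissue only. Every column of values belonged to a sample.

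Counts were tested with edgeR 4.0.16 (R 4.3.3; filterByExpr, TMM scaling, robust quasi-likelihood F test) on all 12 libraries of a tissue with 1 term per group, for hyperoxia in each genotype, knockout in each exposure and their interaction. A gene rose or fell at an adjusted p (Benjamini-Hochberg over all genes tested) below 0.1, and was called with an unadjusted p below 0.05 and a 2-fold change; the interaction used the adjusted p alone. The SE is the log2 fold change divided by the root of F. Because the labels name no litters or batches, p-values measure the spread between these mice. DESeq2 1.42.0 and other settings were alternatives. The fits were tested on simulated data.

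Every member is accounted for. Each library's value is given for the 3 most abundant members of a class and, per comparison, for up to 10 called members of largest fold change whose mean CPM reached 1, the others by range. Up to 4 genes of smallest p in each companion list were eligible to be named. The members and lists were chosen with earlier results of these data known. 1 gene of the family's naming form is not reported here. Sequences came from GENCODE vM21 and RefSeq (GRCm38).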

Additional observations from a re-analysis of the deposited data

How the results depend on the processing

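Of the 57 lung gene tests that passed, 44 passed in every alternative, and over 1026 alternatives 982 kept their side of the threshold, 44 lost it and 0 reversed. In retina 5 of 13 passed in every alternative (192 of 260 kept, 68 lost, 0 reversed). Counts of lung members responding to hyperoxia, both directions together, stayed within 1.5 times the main count. By direction, a 1.5-fold threshold called 15 higher in WT in place of 8, and a term for erythroid markers, chosen after seeing the data, left 4 called lower in place of 8 and 5 falling in place of 9. For knockout in room air in lung, leaving out 1 library gave 0 to 2 called and 0 to 4 passing members, the highest without WT-RA replicate 3. In retina, leaving out 1 library gave 3 to 7 called and 3 to 7 passing in WT, 3 to 7 called and 3 to 9 passing in GSDMD-KO, and 0 to 1 passing for knockout in hyperoxia, where DESeq2 passed 1. In retinal WT, a term for Y-linked expression left 3 called and 3 passing. In retinal GSDMD-KO that term left 5 passing, and a fit of only the 6 compared samples left 4. The next alternatives were chosen after seeing the data. A term for RPE markers left 3 called and 3 passing in WT and 2 and 2 in GSDMD-KO, excluding the 2 libraries of discordant Gsdmd left 3 and 3 in each genotype, and excluding the 3 lens-rich libraries left 4 passing in GSDMD-KO. The causes were not tested. Excluding the lens-rich libraries left WT-RA replicate 1 as the only retina of its group. No paired analysis was possible because the labels give the groups no shared replicate numbers. Shares of all genes were not counted for the alternatives, so these counts of members stand without a background. With 3 mice per group, a member that did not pass was not shown to be unchanged.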
